A study of Mus musculus with 12 samples.

Results

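Tumor necrosis factor, the lymphotoxins, GM-CSF and interleukin 3 are cytokines that activated T cells can make, and they are followed here with 3 receptors in T cells and melanoma cells taken from mouse tumors. The members are the 8 genes of the deposited count table whose symbols are Tnf, Lta, Ltb, Csf2, Il3, Tnfrsf1a, Tnfrsf1b and Ltbr, out of 77175 genes in the table, and all 8 were found.

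The series holds 12 mouse libraries of poly-A RNA in 4 groups of 3. OVA T cells and B16-F10 T cells were OT-1 T cells (genotype C57BL/6J-OT-I) recovered with CD8 beads from tumors. OVA tumor cells and B16-F10 tumor cells were melanoma cells sorted by the fluorescence of GCaMP6s. All tumors grew in hosts of the NOD-SCID strain, whose own lymphocytes of the T and B lineage are missing while myeloid and stromal cells remain, and all hosts, B16-F10 controls included, received OT-1 T cells that had been activated with anti-CD3/CD28 beads. Tumors were taken 2 days after the transfer. B16-F10 is a mouse melanoma line, here carrying an EF1A-driven GCaMP6s calcium sensor. The OVA line also carried an EF1A-driven ovalbumin gene, and the receptor of OT-1 T cells recognises a peptide of ovalbumin. The comparison of OVA with B16-F10 thus asks what changes when the tumor carries the antigen of the transferred cells, although the lines also differ in a second lentiviral construct with its neomycin selection marker. No label ties a library to a mouse, and each p-value therefore reflects no more than library-to-library spread that could be technical. Within groups, every pair of libraries differed by more than counting noise, with a chi-square per degree of freedom of 1.51 to 1.77.

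As background, TNF is made as a membrane protein, is cut from the surface by ADAM17, and binds TNFR1 (Tnfrsf1a), which most cells carry and which can lead to NF-kB signalling or to cell death. It also binds TNFR2 (Tnfrsf1b), which is found mainly on immune and endothelial cells. Lymphotoxin alpha (Lta) alone binds the same receptors, whereas with lymphotoxin beta (Ltb) it forms a membrane complex that binds the lymphotoxin beta receptor (Ltbr) of stromal and myeloid cells and drives chemokines of lymphoid tissue. GM-CSF (Csf2) and IL-3 (Il3) act on myeloid cells through receptors that share a beta chain (Csf2rb). In mouse and human genomes Ltb, Tnf and Lta lie side by side, and so do Csf2 and Il3.

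The RefSeq gene table (build GRCm38.p6) places Ltb, Tnf and Lta next to each other on chromosome 17, Csf2 next to Il3 on chromosome 11, Ltbr and Tnfrsf1a on chromosome 6 with Scnn1a between them, and Tnfrsf1b next to Tnfrsf8 on chromosome 4. The proximal promoters of the 5 cytokine genes are shown because in T cells Tnf and its neighbour Lta were higher with OVA while its other neighbour Ltb was lower, and the neighbours Csf2 and Il3 were both higher. Each line gives the 250 bases before the start of the gene, 5′ to 3′ on the strand of the gene, from RefSeq with coordinates of GRCm38.p6, and capitals mark matches to the motifs named after the sequences.
Tnf (chr17:35202008-35202257, minus strand): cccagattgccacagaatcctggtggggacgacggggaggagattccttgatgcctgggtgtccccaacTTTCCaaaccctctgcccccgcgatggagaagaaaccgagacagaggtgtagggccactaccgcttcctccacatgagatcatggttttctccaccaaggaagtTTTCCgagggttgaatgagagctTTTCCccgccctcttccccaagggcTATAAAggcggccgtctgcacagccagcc
Lta (chr17:35205352-35205601, minus strand): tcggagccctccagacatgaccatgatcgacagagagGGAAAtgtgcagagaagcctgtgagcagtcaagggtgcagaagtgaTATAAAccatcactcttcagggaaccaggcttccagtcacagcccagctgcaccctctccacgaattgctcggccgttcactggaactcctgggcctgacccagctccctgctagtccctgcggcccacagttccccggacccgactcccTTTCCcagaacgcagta
Ltb (chr17:35194257-35194506, plus strand): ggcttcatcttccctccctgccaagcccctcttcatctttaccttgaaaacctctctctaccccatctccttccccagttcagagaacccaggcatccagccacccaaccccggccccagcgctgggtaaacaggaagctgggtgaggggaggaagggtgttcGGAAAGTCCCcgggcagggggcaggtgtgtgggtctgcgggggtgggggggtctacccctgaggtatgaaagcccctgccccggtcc
Csf2 (chr11:54249900-54250149, minus strand): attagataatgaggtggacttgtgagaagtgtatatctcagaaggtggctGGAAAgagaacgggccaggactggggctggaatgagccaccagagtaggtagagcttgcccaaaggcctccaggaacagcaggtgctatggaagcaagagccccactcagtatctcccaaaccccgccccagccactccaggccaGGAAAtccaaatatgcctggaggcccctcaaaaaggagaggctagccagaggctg
Il3 (chr11:54267280-54267529, minus strand): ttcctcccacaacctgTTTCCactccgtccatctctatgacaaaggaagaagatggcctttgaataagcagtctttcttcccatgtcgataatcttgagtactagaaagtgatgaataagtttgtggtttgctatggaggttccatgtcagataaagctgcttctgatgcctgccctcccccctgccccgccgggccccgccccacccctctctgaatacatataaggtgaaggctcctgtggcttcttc
GGAAA and TATAAA were searched as exact letters, AP-1 with any base at N, and NF-kB as a pattern with several variable positions. The core letters bound by NFAT factors (GGAAA, both strands) occurred 3 times before Tnf, 2 times before Lta, 1 time before Ltb, 2 times before Csf2 and 1 time before Il3, and they occur in 55.6% of the 32851 promoters of the same length. A match to the NF-kB motif, on both strands, stood only before Ltb among the 5 (positions -87 to -78 from the start), where it overlaps the GGAAA match at -87 to -83, and 7.25% of all promoters hold one. The TATAAA letters on the strand of the gene were found before Tnf at -29 to -24 and before Lta at -167 to -162, and in 7.59% of all promoters. The AP-1 letters (TGANTCA, both strands, in 6.75% of all promoters) were not in any of these 5 windows. Of the receptors, Ltbr had 1 GGAAA match at -118 to -114, and Tnfrsf1a and Tnfrsf1b had no match to any of the 4 motifs. These matches describe letters in a window and do not show binding.

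Library totals ran from 17203672 to 24267494 counts in OVA T cells, from 15494683 to 19296278 in B16-F10 T cells, from 18754546 to 33263730 in OVA tumor cells and from 18948947 to 23213586 in B16-F10 tumor cells. Levels are CPM, the count scaled by the library total, as mean ± SD of 3 libraries unless said otherwise. All 20 T cell markers were at 1 CPM or more in both T cell groups (summed level 1278 ± 5.32 CPM in OVA T cells and 1346 ± 7.63 CPM in B16-F10 T cells) and also in OVA tumor cells (183 ± 4.86 CPM), while 6 of 20, Cd3e among them, were at 0 counts in B16-F10 tumor cells (6.85 ± 0.642 CPM). The 12 melanoma markers summed to 132, 304, 11890 and 27601 CPM in OVA T cells, B16-F10 T cells, OVA tumor cells and B16-F10 tumor cells. In that order, the 18 macrophage and monocyte markers stood at a summed 903, 883, 3021 and 17.0 CPM, the 12 endothelial markers at 10184, 10967, 4495 and 332 CPM, and the 12 fibroblast markers at 6494, 7046, 2617 and 99.9 CPM. Both T cell groups and the OVA tumor cells thus held transcripts of other cell types, and in such bulk samples fewer cells of a type and less RNA per cell cannot be told apart.

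In T cells, TNF, lymphotoxin alpha, GM-CSF and IL-3 were higher with the OVA tumor and lymphotoxin beta was lower. Of the 8 members, 5 were called higher, 2 lower and 1 was not called at an adjusted p of 0.05 (edgeR quasi-likelihood test, adjusted over all 16536 genes tested). Over all genes tested, 46.1% were called, 23.7% higher and 22.4% lower. The libraries of the groups did not overlap in CPM for 7 of the 8 members, against 54.5% of all genes tested.

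Tnf, the founding ligand of the family, had 34.1, 35.3 and 37.1 CPM in OVA T cells, against 16.3, 17.3 and 14.7 CPM in B16-F10 T cells. Every OVA library lay above every B16-F10 library, with means of 35.5 ± 1.52 and 16.1 ± 1.34 CPM. The log2 fold change was 1.19 (SE 0.0613, adjusted p = 3.73e-15). Lta, whose product forms the soluble homotrimer and the core of the membrane complex, was far less abundant. It had 35, 19 and 35 counts in OVA T cells, against 11, 14 and 14 counts in B16-F10 T cells, which are 1.34 ± 0.208 and 0.755 ± 0.170 CPM. All OVA libraries were above all B16-F10 libraries, and the log2 fold change was 0.92 (SE 0.286, adjusted p = 0.00981). The call for Lta was lost with DESeq2 (adjusted p = 0.0607) and without B16-F10 T cell replicate 1 (log2 fold change 0.74, adjusted p = 0.0666).

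Ltb, which anchors the lymphotoxin complex in the membrane, went the other way. It had 27.6, 25.9 and 25.6 CPM in OVA T cells, against 52.0, 58.3 and 53.7 CPM in B16-F10 T cells. The groups did not overlap, and the mean level of 26.4 ± 1.07 CPM in OVA T cells was below the 54.7 ± 3.25 CPM in B16-F10 T cells. The log2 fold change was -0.99 (SE 0.0503, adjusted p = 2.85e-15). Within each library, Ltb counts per kb of transcript were 0.805 ± 0.0656 times those of Tnf in OVA T cells and 3.68 ± 0.261 times in B16-F10 T cells, so the order of these neighbouring genes changed. The ratio ran from 0.746 to 0.876 in OVA T cells and from 3.45 to 3.96 in B16-F10 T cells.

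Csf2, which encodes the myeloid growth factor GM-CSF, had 38, 35 and 48 counts in OVA T cells, against 17, 13 and 12 counts in B16-F10 T cells. All 3 OVA libraries were higher, with 1.88 ± 0.271 and 0.797 ± 0.0757 CPM, and the log2 fold change was 1.27 (SE 0.258, adjusted p = 0.000188). The exons of Csf2 overlap those of an unnamed gene model on the other strand in GENCODE M21, and the strand setting of the counting is not given in the sources used here, so reads of the opposite strands cannot be told apart. Il3, its neighbour, had 45, 39 and 48 counts in OVA T cells, against 0, 1 and 2 counts in B16-F10 T cells. It was near its detection limit with the B16-F10 tumor and at 2.05 ± 0.207 CPM with the OVA tumor. Il3 met the minimum count of the filter only in OVA T cells, so passing the filter fixed its direction. The ratio was 35.5 with a 95% exact counting interval from 11.9 to 174, and the adjusted p was 6.67e-10. Relative to Tnf, Csf2 counts per kb were 0.108 ± 0.0125 in OVA T cells and 0.102 ± 0.0130 in B16-F10 T cells, and these ranges overlapped.

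**Figure D1:**
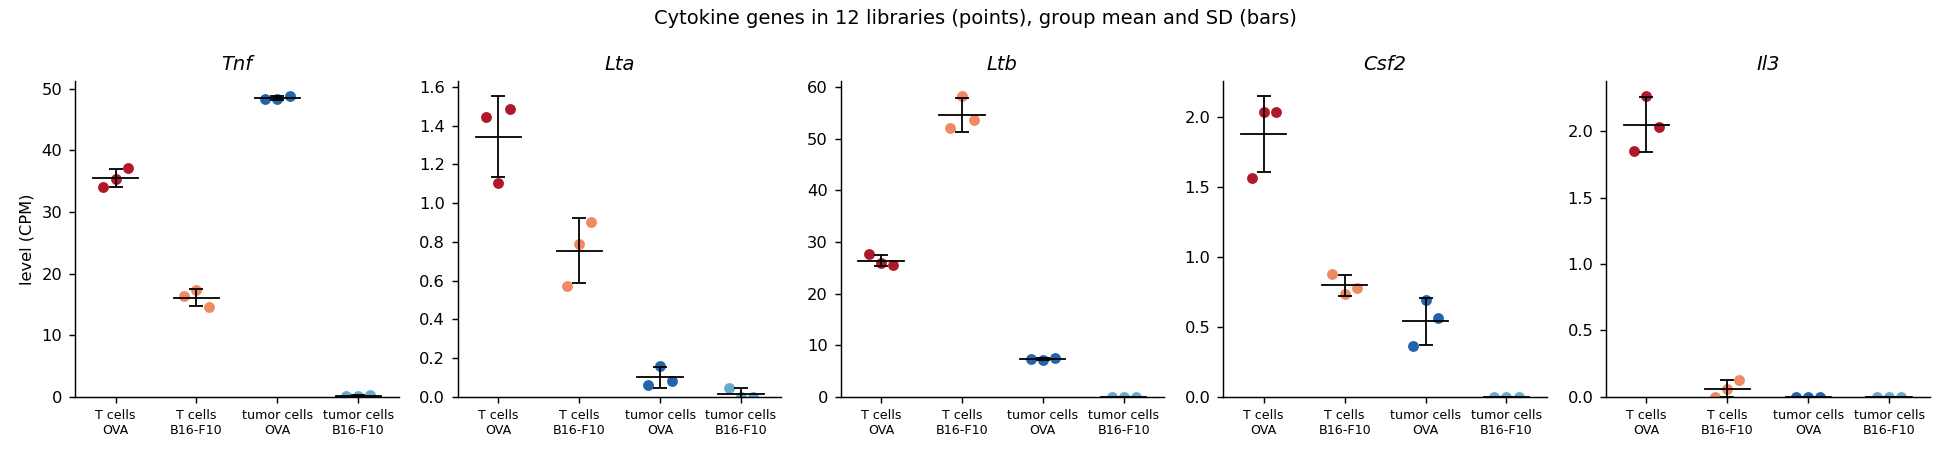
Level (CPM) of the 5 cytokine genes in 12 libraries, with 1 point per library and bars for the group mean and SD of 3 libraries, each panel with its own axis from 0. Tnf, Lta, Csf2 and Il3 lie higher and Ltb lower in OVA T cells than in B16-F10 T cells, and OVA tumor cells hold 48.5 CPM of Tnf but 0 of Il3.

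The receptors differed less than the cytokines in T cells. Tnfrsf1b, the receptor of immune cells, had 260.3, 263 and 256 CPM in OVA T cells, against 215, 222 and 216 CPM in B16-F10 T cells. The groups did not overlap, and the log2 fold change was 0.31 (SE 0.0195, adjusted p = 2.31e-13). Ltbr, the receptor of the lymphotoxin complex, had 82.6, 79.6 and 80.1 CPM in OVA T cells, against 97.8, 100.0 and 93.6 CPM in B16-F10 T cells. It was lower in every OVA library, with a log2 fold change of -0.21 (SE 0.0306, adjusted p = 1.96e-06). Tnfrsf1a, the widely expressed receptor, had 264, 267 and 260.2 CPM in OVA T cells, against 272, 275 and 267 CPM in B16-F10 T cells. Its groups overlapped, and its log2 fold change after TMM scaling was 0.02 (95% interval -0.02 to 0.05, adjusted p = 0.531). With library totals alone its sign turned, at -0.041 (adjusted p = 0.0753). In counts per kb, Tnfrsf1b was 0.669 ± 0.000250 times Tnfrsf1a in OVA T cells and 0.544 ± 0.00613 times in B16-F10 T cells.

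The T cell marker sum, at 1278 CPM in OVA T cells and 1346 CPM in B16-F10 T cells, differed far less than the cytokines did. Per 1000 CPM of T cell markers, Tnf stood at 27.8 ± 1.21 CPM in OVA T cells and 12.0 ± 1.00 CPM in B16-F10 T cells. Ltb stood at 20.6 ± 0.789 CPM in OVA T cells and 40.6 ± 2.27 CPM in B16-F10 T cells. Scaling the fit to these markers left every member call in T cells on its side of the threshold, with Tnf at 1.21 and Ltb at -0.97 on the log2 scale. Other marker sums that moved were those of neutrophils (85.1 CPM in OVA T cells and 49.1 CPM in B16-F10 T cells, 6 of 7 tested markers higher), of dendritic cells (288 and 368 CPM in the same order, 7 of 10 lower), of CD4 and regulatory T cells (656 and 296 CPM, 2 higher and 3 lower of 5 tested) and of mast cells and basophils (311 and 154 CPM, 3 of 3 tested markers higher). Il2ra and Ctla4 made up most of the CD4 and regulatory T cell sum. In the order OVA and B16-F10 T cells, Il2ra stood at 347 and 81.2 CPM and Ctla4 at 282 and 155 CPM. In that order Cd4 stood at 11.9 and 14.5 CPM, Foxp3 at 1.87 and 3.68 CPM and Ikzf2 at 12.6 and 41.8 CPM. Cd40lg had 37 counts in OVA T cells and 7 in B16-F10 T cells. Of the mast cell and basophil list only Kit, Hdc and Il1rl1 could be tested, and the defining genes Fcer1a and Ms4a2 were at 0 counts in both T cell groups. The NK cell list summed to 312 CPM in OVA T cells and 74.3 CPM in B16-F10 T cells, of which Gzma and Prf1, which activated T cells also express, made up most. Of its 5 tested genes 3 were higher and 1 lower with OVA (median 1.92). Among its receptors Klrc2 had 293 counts in OVA T cells and 64 in B16-F10 T cells, and Ncr1 had 4 counts in OVA T cells and 2 in B16-F10 T cells. The melanoma markers (11 of 11 tested lower), the macrophage and monocyte markers (3 higher and 10 lower of 18), the endothelial markers (4 higher and 7 lower of 12) and the fibroblast markers (2 higher and 7 lower of 12) also shifted. The B cell markers summed to 4.58 ± 0.552 CPM in OVA T cells and 5.34 ± 0.805 CPM in B16-F10 T cells. The part of these cell types in the cytokine and receptor differences was not tested.

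In the sorted melanoma fraction, every member that could be tested was higher with the OVA tumor. These were 5 of 8 members, Tnf, Ltb, Tnfrsf1a, Tnfrsf1b and Ltbr, while Lta, Csf2 and Il3 had too few counts for the test. Tnf and Ltb met the minimum count of the filter only in OVA tumor cells, so passing the filter fixed their direction. Of the 17418 genes tested in tumor cells 79.4% were called, 42.0% higher and 37.4% lower, and 82.6% had libraries that did not overlap, as was so for each of the 5 tested members. Tnf had 48.3, 48.4 and 48.8 CPM in OVA tumor cells, against 0.141, 0.172 and 0.264 CPM in B16-F10 tumor cells, which are 3, 4 and 5 counts. OVA tumor cells were far above B16-F10 tumor cells in every library, with a log2 fold change of 8.13 (SE 0.113, adjusted p = 1.59e-25). Ltb had 246, 134 and 185 counts in OVA tumor cells, against 0 counts in all 3 B16-F10 tumor cell libraries. It was at least 155-fold higher in OVA tumor cells, taking 3 counts over the B16-F10 group as the floor (adjusted p = 3.72e-16).

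The low cytokines of the tumor fraction followed the same direction as far as they were detected. Csf2 had 12, 13 and 14 counts in OVA tumor cells, against 0 counts in every B16-F10 tumor cell library, and was at least 10.7-fold higher against the same floor. Lta had 2, 3 and 2 counts in OVA tumor cells, against 1, 0 and 0 counts in B16-F10 tumor cells, a ratio of 5.78 whose counting interval from 0.742 to 260.3 includes equality. Il3 had 0 counts in all 6 tumor cell libraries. A count of 0 in a library allows up to 3 counts, between 0.0902 and 0.160 CPM in OVA tumor cells, so Il3 was not detectable there at this depth. These limits and intervals cover counting error only.

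Receptors of the tumor fraction fell into a pair present with either tumor and 1 that was nearly missing with B16-F10. Tnfrsf1b had 245, 239.6 and 232 CPM in OVA tumor cells, against 1.03, 0.689 and 1.00 CPM in B16-F10 tumor cells. The log2 fold change was 8.22 (SE 0.0603, adjusted p = 8.53e-31), close in size to that of Tnf. Tnfrsf1a had 175, 173 and 177 CPM in OVA tumor cells, against 118, 120.0 and 120.2 CPM in B16-F10 tumor cells. It was higher in each OVA library, with a log2 fold change of 0.72 (SE 0.0206, adjusted p = 2.28e-19). Ltbr had 98.2, 94.0 and 98.9 CPM in OVA tumor cells, against 85.6, 87.7 and 88.1 CPM in B16-F10 tumor cells. The groups did not overlap, and the log2 fold change was 0.33 (SE 0.0276, adjusted p = 1.93e-10). In B16-F10 tumor cells the summed markers were 17.0 CPM for macrophages and monocytes and 6.85 CPM for T cells. They were 332 CPM for endothelial cells and 99.9 CPM for fibroblasts. The part of these cell types in the Tnfrsf1a and Ltbr levels of B16-F10 tumor cells was not tested.

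**Figure D2:**
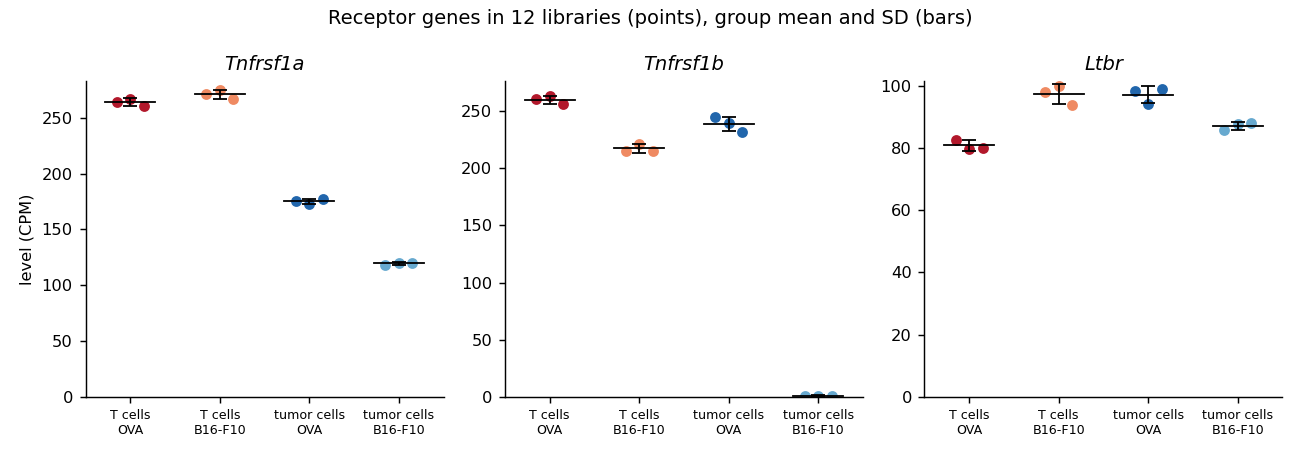
Level (CPM) of the 3 receptor genes in 12 libraries, with 1 point per library and bars for the group mean and SD of 3 libraries, each axis from 0. Tnfrsf1a and Ltbr are present in all 4 groups, whereas Tnfrsf1b is between 215 and 263 CPM in 3 groups and near 1 CPM in B16-F10 tumor cells.

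Markers of other cell types moved with these differences in the tumor fraction. All 18 macrophage and monocyte markers, all 20 T cell markers, 12 of 12 endothelial markers, 12 of 12 fibroblast markers, 10 of 10 dendritic cell markers and 8 of 8 tested neutrophil markers were called higher in OVA tumor cells. Melanoma markers were lower there in 11 of 12. The CD4 and regulatory T cell list (4 of 5 tested), the NK cell list (4 of 4 tested) and the mast cell and basophil list (3 of 3 tested) were also mostly higher in OVA tumor cells, and the B cell list had 2 higher and 2 lower of 5. Passing the count filter fixed the direction of markers with 3 or fewer counts in B16-F10 tumor cells. These were 14 T cell, 5 dendritic cell, 4 endothelial, 4 NK cell and 3 neutrophil markers. They were also 2 CD4 and regulatory T cell, 2 B cell and 1 macrophage and monocyte marker. The summed macrophage and monocyte level was 3021 ± 10.8 CPM in OVA tumor cells and 17.0 ± 0.367 CPM in B16-F10 tumor cells. Per 1000 CPM of these markers, Tnf was at 16.1 ± 0.119 CPM in OVA tumor cells and 11.3 ± 3.78 CPM in B16-F10 tumor cells, and Tnfrsf1b at 79.1 ± 2.03 and 53.5 ± 12.2 CPM in the same order. The same ratios were 39.3 ± 1.66 CPM for Tnf and 288 ± 3.73 CPM for Tnfrsf1b in OVA T cells, above those in OVA tumor cells. Cd14 alone made up 577 of the 903 CPM of these markers in OVA T cells and 964 of the 3021 CPM in OVA tumor cells. The unit thus differed in makeup between the fractions. Per 1000 CPM of T cell markers, OVA tumor cells held 265 ± 5.66 CPM of Tnf, against 27.8 ± 1.21 CPM in OVA T cells, but 39.9 ± 0.588 CPM of Ltb, against 20.6 ± 0.789 CPM in OVA T cells. On the same scale Csf2 stood at 2.94 ± 0.943 CPM in OVA tumor cells and 1.47 ± 0.216 CPM in OVA T cells, and Lta at 0.549 ± 0.301 CPM in OVA tumor cells and 1.05 ± 0.159 CPM in OVA T cells. The part of other cell types in the level of each member was not tested.

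**Figure D3:**
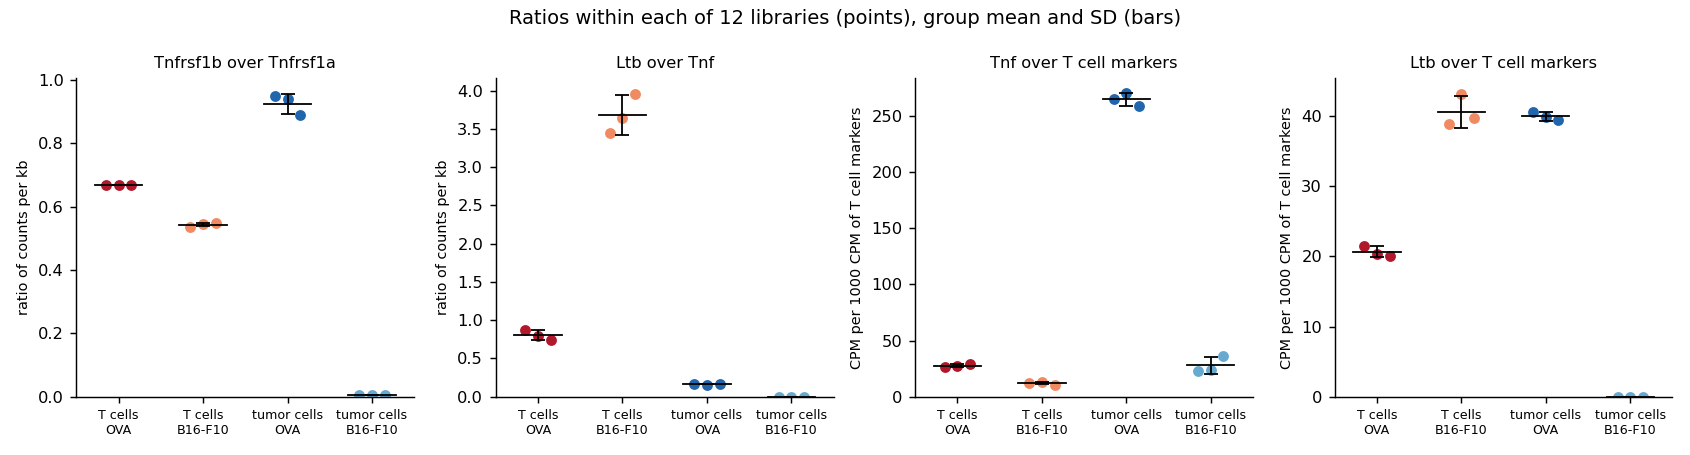
Ratios within each of 12 libraries (points) with group mean and SD (bars), as counts per kb of one gene over another, and as CPM of a gene per 1000 CPM of summed T cell markers. Ltb over Tnf is above 3 only in B16-F10 T cells, and Tnf over T cell markers is 265 in OVA tumor cells and at most 36.2 in any library of the other groups.

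The OVA effect differed between the cell fractions for 6 of the 8 members, and all 6 had the smaller or opposite effect in T cells. Of 18562 genes tested for this difference 69.0% were called, 41.3% lower and 27.7% higher in T cells, and the median over all genes was -0.16 on the log2 scale. The difference, T cells minus tumor cells, was -6.93 for Tnf (SE 0.177, adjusted p = 4.23e-22) and -7.90 for Tnfrsf1b (SE 0.0726, adjusted p = 6.38e-32). It was -0.71 for Tnfrsf1a (SE 0.0271, adjusted p = 3.45e-18) and -0.54 for Ltbr (SE 0.0417, adjusted p = 1e-11). Ltbr was lower with OVA in T cells and higher with OVA in tumor cells, and so was Ltb (adjusted p of the difference 2.5e-19). For Csf2, which was not tested in tumor cells alone, the adjusted p of the difference was 0.000142. The B16-F10 tumor group was at 0 counts for Ltb and Csf2 and at 12 counts for Tnf. The differences of these genes thus rest on a group at or near the floor. Lta (adjusted p = 0.247) and Il3 (adjusted p = 1, both tumor groups at 0 counts) were not called.

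**Figure D4:**
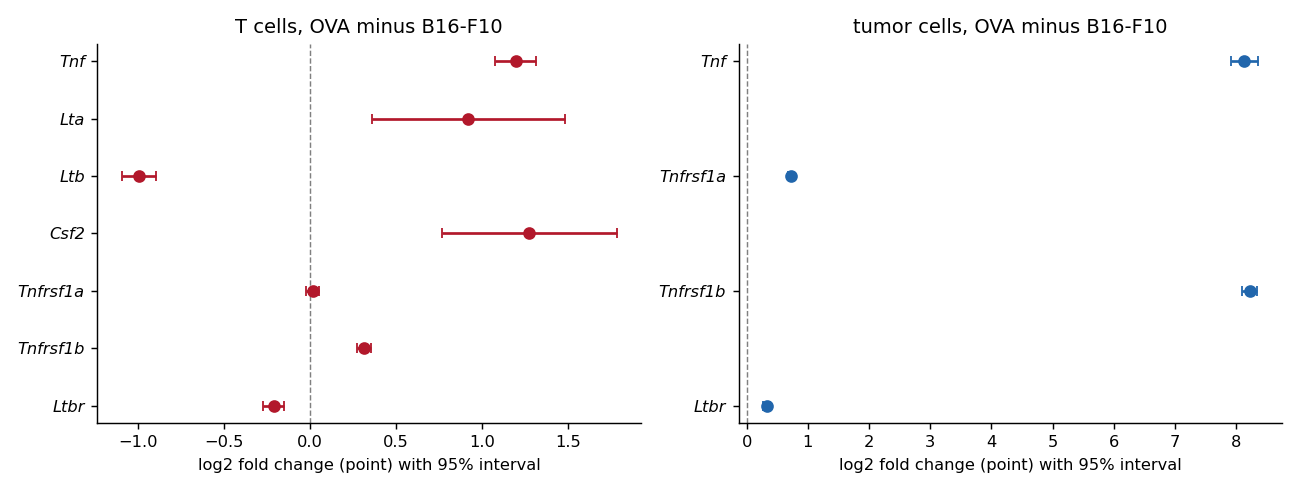
Log2 fold change of OVA over B16-F10 (points) with the 95% interval (bars) for members with more than 3 counts in both groups, in T cells and in tumor cells, on separate axes. Intervals for Ltb and Ltbr lie below 0 in T cells, that of Tnfrsf1a spans 0 there, and all intervals in tumor cells lie above 0.

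Between the fractions of B16-F10 tumors, all 8 members were higher in T cells, where 85.9% of 18562 genes tested were called, 45.5% higher and 40.4% lower. Libraries did not overlap for 7 of 8 members, against 86.5% of genes. Tnf differed by 6.61 (SE 0.168), Tnfrsf1b by 8.15 (SE 0.0617), Tnfrsf1a by 1.43 (SE 0.0201) and Ltbr by 0.41 (SE 0.0303) on the log2 scale. Ltb was at least 1155-fold and Csf2 at least 16.9-fold higher in B16-F10 T cells, with the tumor cells at 0 counts. Il3, with 3 counts in B16-F10 T cells and 0 in B16-F10 tumor cells, passed the test (adjusted p = 0.0369), but its libraries overlapped at 0, no fold can be given, and the call was lost in 5 of 6 fits that left out a library.

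Within OVA tumors, 6 members were higher and 2 lower in T cells, against 77.5% of genes called, 37.3% higher and 40.2% lower. Libraries overlapped for no member, and 79.0% of genes had libraries that did not overlap. These fraction comparisons use the same libraries as the OVA comparisons. Tnf was lower in OVA T cells than in OVA tumor cells, at 35.5 ± 1.52 and 48.5 ± 0.281 CPM (log2 fold change -0.32, SE 0.0434, adjusted p = 3.06e-07). The lymphotoxins and GM-CSF were higher in OVA T cells, with log2 fold changes of 3.94 for Lta (SE 0.433), 1.98 for Ltb (SE 0.0679) and 1.98 for Csf2 (SE 0.289). Il3 was at least 52.0-fold higher in OVA T cells, where the 3 libraries summed to 132 counts against 0 in OVA tumor cells. Of the receptors, Tnfrsf1a was higher by 0.72 (SE 0.0179) and Tnfrsf1b by 0.25 (SE 0.0202), and Ltbr was lower by the fit at -0.14 (SE 0.0287, adjusted p = 0.000142). The Ltbr call was lost with median-ratio size factors, at -0.028 (adjusted p = 0.386).

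Ordered by level per kb of exon length, the 3 receptors came before the 5 cytokines in all 4 groups. In OVA T cells the levels were 101.8 CPM per kb for Tnfrsf1a, 68.1 for Tnfrsf1b, 34.3 for Ltbr, 21.7 for Tnf, 17.4 for Ltb, 3.26 for Il3, 2.35 for Csf2 and 0.972 for Lta. In B16-F10 T cells Ltb came before Tnf, at 36.1 and 9.82 CPM per kb, and Il3 was last at 0.0983 CPM per kb after Lta at 0.546. OVA tumor cells held 29.6 CPM per kb of Tnf and 4.83 of Ltb below 67.6 of Tnfrsf1a, 62.6 of Tnfrsf1b and 41.2 of Ltbr. In B16-F10 tumor cells Tnfrsf1a at 46.1 and Ltbr at 37.0 CPM per kb were followed by Tnfrsf1b at 0.238 and Tnf at 0.117, and the last 4 cytokines overlapped each other at or near 0. In every other case the libraries of neighbours in the order did not overlap.

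Genes of the surrounding pathways were counted over whole lists of known pathway genes, and each count stands beside the 46.1% of genes called in T cells and the 79.4% called in tumor cells. The median log2 fold change of all genes tested was -0.01 in T cells and 0.04 in tumor cells. Some lists share genes, such as Traf2 and Birc3 in the signalling lists of TNF and lymphotoxin receptors.

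Other cytokines of T cells rose with the OVA tumor in 4 of 5 tested genes in T cells, with a median of 3.29. Ifng, the macrophage-activating interferon, reached 315 ± 7.76 CPM in OVA T cells, against 12.8 ± 0.790 CPM in B16-F10 T cells (log2 fold change 4.67, SE 0.0368, adjusted p = 1.36e-33). Il2, the T cell growth factor, had 64 counts in OVA T cells and 0 in B16-F10 T cells, at least 17.2-fold higher. Il13, a type 2 cytokine, rose by 3.29 (SE 0.310, adjusted p = 1e-09), and Tgfb1 fell by 0.56 on the log2 scale (adjusted p = 6.61e-20). In tumor cells 3 of 3 tested genes of this list were higher, but for 2 of them passing the count filter fixed the direction. Ifng had 101 counts in OVA tumor cells and 0 in B16-F10 tumor cells, and at 1.34 ± 0.122 CPM in OVA tumor cells it lay far below the Tnf level of 48.5 CPM there, whereas in OVA T cells Ifng was above Tnf.

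Among the other ligands of the TNF superfamily, 4 of 13 tested genes rose and 3 fell in T cells (median 0.03). Tnfsf10, the death ligand TRAIL, rose by 1.99 (SE 0.0480), Tnfsf11, the osteoclast factor RANKL, by 1.89 (SE 0.0706) and Tnfsf14, the ligand LIGHT that also binds Ltbr, by 1.33 (SE 0.121) on the log2 scale. Tnfsf18, the ligand of GITR, fell by 1.09 (SE 0.0741). Of the other receptors of the superfamily, 10 of 19 rose and 2 fell in T cells (median 0.23), or 10 and 3 with library totals alone. The costimulatory receptor Tnfrsf9 had 234 ± 2.99 CPM in OVA T cells, against 55.9 ± 1.97 CPM in B16-F10 T cells, a log2 fold change of 2.12 (SE 0.0264). Tnfrsf8 (CD30) rose by 1.92 (SE 0.158), Eda2r by 1.44 (SE 0.0645) and Tnfrsf12a by 0.60 (SE 0.0317). In tumor cells 11 of 11 tested ligands were higher (median 5.85, or 4.89 with genes of 3 or fewer counts in a group at their bound), as were 17 of 19 receptors, with 1 lower (median 3.60), or all 19 higher when scaled to melanoma markers. Of these, 6 ligands and 4 receptors had 3 or fewer counts in B16-F10 tumor cells, so passing the count filter fixed their direction.

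Among genes that process TNF and carry its receptor signal, more rose than fell in T cells. Of 8 genes for shedding and processing, 6 rose and the others were not called (median 0.13). With library totals alone 5 rose and 1 fell. Adam17, the protease that releases TNF, rose by 0.12 (SE 0.0245), its partner Rhbdf2 by 0.16 (SE 0.0312) and its inhibitor Timp3 by 0.99 (SE 0.0119). Of 25 genes of TNF receptor signalling, 12 rose and 1 fell (median 0.15), or 9 and 3 with library totals alone. Cflar, which blocks caspase 8, rose by 1.04 (SE 0.0185), the adaptor Traf1 by 0.76 (SE 0.0256), the kinase Ripk1 by 0.72 (SE 0.0238) and Casp8 by 0.44 (SE 0.0255). In tumor cells 6 of 8 processing genes were higher and 1 lower (median 0.38), with Timp3 at 5.46 (SE 0.0291) and Sppl2b at -1.27 (SE 0.0354). The signalling genes of tumor cells were split, 11 higher and 10 lower of 25 (median 0.03), but scaling to melanoma markers made all 25 higher and library totals 9 higher and 13 lower. The feedback inhibitor Tnfaip3 was higher by 6.91 (SE 0.0311) and Birc3 by 5.15 (SE 0.0659), and Cflar was lower, at 250 ± 1.61 CPM in OVA tumor cells and 378 ± 4.06 CPM in B16-F10 tumor cells (log2 fold change -0.43, turning to 0.62 when scaled to melanoma markers).

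Response genes of the TNF pathway and of the lymphotoxin beta receptor pathway moved in different directions in T cell libraries. Of 20 tested TNF response genes, 17 were higher with OVA and 2 lower (median 0.55), or 15 and 2 with library totals alone. The adhesion molecule Vcam1 had 287 ± 2.41 CPM in OVA T cells, against 64.2 ± 2.12 CPM in B16-F10 T cells (log2 fold change 2.22, SE 0.0245). Csf1, the macrophage growth factor, was higher by 1.16 (SE 0.0230), the neutrophil chemokine Cxcl2 by 1.06 (SE 0.0183) and the adhesion molecule Icam1 by 0.83 (SE 0.0127). Several of these genes are also expressed by endothelial and myeloid cells, whose markers were present in both groups. Of 6 tested response genes of the lymphotoxin beta receptor, 1 was higher and 4 lower (median -0.91). Ccl21a, the lymphatic chemokine that guides T cells, had 0 counts in all 3 OVA T cell libraries and 1360 counts in B16-F10 T cells, so it was at least 562-fold lower in OVA T cells. Near-identical copies of this gene exist in the mouse, and how reads shared between copies were counted is not given in the sources used here. Cxcl13, which attracts B cells, had 0.802 ± 0.0956 CPM in OVA T cells, against 4.55 ± 0.709 CPM in B16-F10 T cells (log2 fold change -2.43, SE 0.208), and Cxcl12 differed by -0.14 (SE 0.0240). Glycam1 was the gene that was higher, by 1.52 (SE 0.348), at 69 counts in OVA T cells and 20 counts in B16-F10 T cells. Endothelial markers summed to 10184 CPM in OVA T cells and 10967 CPM in B16-F10 T cells, and fibroblast markers to 6494 and 7046 CPM. The part of other cell types in both response lists was not tested.

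The intracellular genes of the lymphotoxin beta receptor pathway shifted less, with 2 of 8 higher and 1 lower in T cells (median 0.02). Map3k14, the kinase NIK of the alternative NF-kB pathway, was lower by the fit at -0.53 (SE 0.0496), Traf2 was higher by 0.48 (SE 0.0669) and Nfkb2 by 0.16 (SE 0.0198). In tumor cells 6 of 8 were higher and 1 lower (median 1.51), or all 8 higher when scaled to melanoma markers, among them Relb at 2.21 (SE 0.0479) and Nfkb2 at 2.06 (SE 0.0275). All 20 tested TNF response genes and 3 of 3 tested lymphotoxin response genes were higher in OVA tumor cells, with medians of 5.98 and 9.42 (7.50 with low genes at their bound). Of these, 1 TNF response gene and 2 lymphotoxin response genes had 3 or fewer counts in B16-F10 tumor cells. Passing the count filter fixed the direction of such genes. Cxcl2 had 647 ± 6.48 CPM in OVA tumor cells and 2.09 ± 0.305 CPM in B16-F10 tumor cells, and Cxcl13 had 16.3 ± 0.404 CPM in OVA tumor cells and 1 count in B16-F10 tumor cells. The macrophage, endothelial and fibroblast marker sums given above were higher in the same libraries, and their part in these lists was not tested.

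Receptors and signal genes of GM-CSF and IL-3 were higher with OVA in 9 of 10 genes in T cells, with the remaining gene not called (median 0.21). With library totals alone 8 of 10 were higher. Csf2ra, the GM-CSF-specific chain, was at 16.1 ± 0.635 CPM in OVA T cells and 11.8 ± 0.671 CPM in B16-F10 T cells (log2 fold change 0.51, SE 0.0736). Csf2rb, the shared beta chain, was at 313 ± 1.10 CPM in OVA T cells and 299 ± 4.91 CPM in B16-F10 T cells (log2 fold change 0.12, SE 0.0179). Il3ra, the IL-3-specific chain, was the gene not called, at 36.1 ± 0.129 CPM in OVA T cells and 38.4 ± 1.42 CPM in B16-F10 T cells. The feedback genes Socs3 and Cish rose by 0.68 (SE 0.0152) and 0.45 (SE 0.0249). In tumor cells 8 of 10 were higher and 2 lower (median 2.67), or all 10 higher when scaled to melanoma markers. Csf2rb had 241 ± 2.64 CPM in OVA tumor cells, against 0.872 ± 0.313 CPM in B16-F10 tumor cells, and its mouse paralog Csf2rb2 had 147 ± 2.24 CPM, against 0.245 ± 0.120 CPM. These paralogs are close in sequence, so the split of reads between them is uncertain.

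Genes that control the decay of cytokine mRNA were mixed in T cells, with 4 of 11 higher and 4 lower (median 0.01). Zfp36, which marks the Tnf message for decay, was higher by 0.20 (SE 0.0135) and Zc3h12d by 1.06 (SE 0.0763). Zfp36l2 was lower, at 235 ± 1.33 CPM in OVA T cells and 392 ± 2.47 CPM in B16-F10 T cells (log2 fold change -0.68, SE 0.0172). In tumor cells 7 of 11 were higher and 4 lower (median 0.25), or all 11 higher when scaled to melanoma markers, with Zc3h12a at 4.62 (SE 0.0551) and Zfp36 at 3.73 (SE 0.0215).

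**Figure D5:**
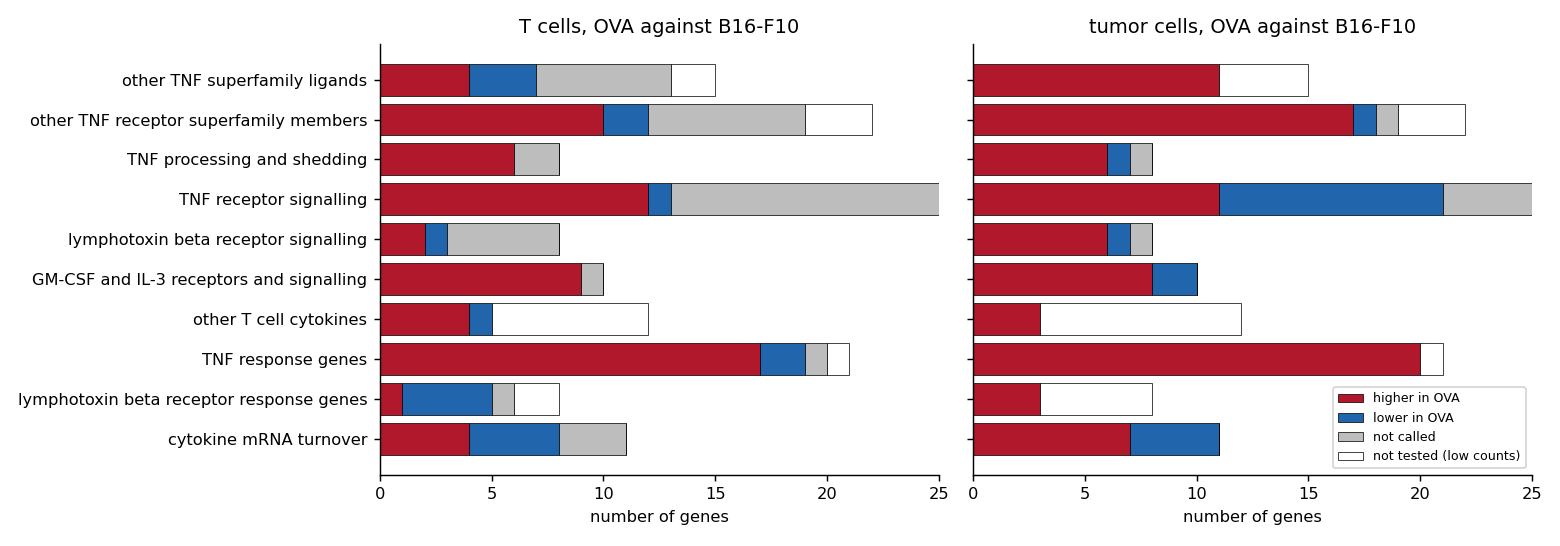
Number of genes of each pathway list that were higher, lower, not called or not tested in OVA against B16-F10, in T cells and in tumor cells, at an adjusted p of 0.05. In T cells the TNF response list has 17 higher and 2 lower and the lymphotoxin beta receptor response list 1 higher and 4 lower. In tumor cells both lists have only higher genes among those tested. For 2 of the 3 tested lymphotoxin genes there, passing the count filter fixed the direction.

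Genes whose profile over the 12 libraries came closest to a member were found as those with the smallest root mean square difference of centred log2(CPM + 1) values. For Tnf these were Themis2 (0.184), Il1r2 (0.218) and Cxcl16 (0.236). Themis2, an adaptor of macrophages and B cells, had 29.4 CPM in OVA T cells, 12.8 CPM in B16-F10 T cells, 49.3 CPM in OVA tumor cells and 0.247 CPM in B16-F10 tumor cells. For Ltb they were Trdc (0.181), the delta chain constant gene of the T cell receptor, Hbb-bs (0.228), an adult beta globin of red cells with a close paralog, and Gimap3 (0.267). For Tnfrsf1b they were Csf2rb (0.246), Rasgef1b (0.261) and Slfn2 (0.289). Tnfrsf1a was followed most closely by Lims1 (0.0205), Tspan9 (0.0342) and Actn1 (0.0372), and Ltbr by Rps10 (0.0355), Qki (0.0429) and Fam3c (0.0466). For the low genes Lta, Csf2 and Il3 the pseudocount of 1 compresses the profile, so that genes of much smaller fold came out nearest, Anxa1 (0.0945) for Lta, Fndc3a (0.127) for Csf2 and Pml (0.113) for Il3.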

How the data were processed

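Messenger RNA was sequenced in 12 libraries. The authors deposited raw counts per Ensembl gene in 1 table, not normalized, and per the submitters' processing notes used HISAT2 2.0.5, featureCounts 1.6.0 and GRCm39. Strand setting, multimapping and annotation release are not given in the sources used here. Columns were matched to samples by title, and 0 columns were left unmatched. CPM uses library totals without TMM factors. Totals of 15494683 to 33263730 counts per library limit the precision of genes with few counts.

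Testing used R 4.3.3 and edgeR 4.0.16 (filterByExpr with a minimum count of 10, TMM, quasi-likelihood F tests, Benjamini-Hochberg at 0.05), on 6 libraries for the OVA effect of a cell fraction and on 12 for the other comparisons. Standard errors come from the F statistic, and the script was tested on simulated counts. DESeq2 1.42.0, limma 3.58.1 (voom), other scalings, filters, a 2-fold test, a replicate block and leaving out each library were alternatives. Groups with 3 or fewer counts got bounds against 3 counts over the group, or Clopper-Pearson 95% intervals, in place of fitted folds. In the fits on 6 libraries, a gene with such a group passed the filter only through the other group, which fixed its direction. Lengths come from GENCODE M21 exons (GRCm38), and promoters from RefSeq. Replicates differed by more than counting noise in every pair.

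Members, lists and markers were chosen with earlier results of these data known. Named were all members, up to 4 genes per list by smallest adjusted p, a fixed set (Ifng, Il2, Csf2ra, Csf2rb, Il3ra, Cd3e) and the 3 nearest profiles. Cflar in tumor cells and single genes of the marker lists other than Cd3e were named after their values were seen. All 262 list symbols were found.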

Additional observations from a re-analysis of the deposited data

Results flagged for a closer look

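The OVA effect differed between T cells and tumor cells in a direct test for 6 members. The difference, T cells minus tumor cells, was -6.93 for Tnf, -7.90 for Tnfrsf1b, -0.71 for Tnfrsf1a and -0.54 for Ltbr on the log2 scale. For Ltb and Csf2, whose B16-F10 tumor cell group was at 0 counts, it is given as an adjusted p of 2.5e-19 and 0.000142. Against these stand 69.0% of all genes called in this test. Macrophage and monocyte markers summed to 3021 CPM in OVA tumor cells and 17.0 CPM in B16-F10 tumor cells, and their part was not tested.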

How the results depend on the processing

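Most member results kept their direction and their side of the threshold under the alternatives other than the 2-fold test. Against a 2-fold change 15 of 37 member results lost their call. Exceptions with another tool or scaling were Ltbr between the fractions of OVA tumors (-0.028, adjusted p = 0.386, with median-ratio size factors and -0.027, adjusted p = 0.544, with DESeq2), Tnfrsf1a in T cells (-0.041 with library totals), Lta in T cells (0.91, adjusted p = 0.0607, with DESeq2) and Il3 between the fractions of B16-F10 tumors (adjusted p = 0.0545 without a filter). For the Il3 difference of OVA effects, DESeq2 gave an adjusted p of 0.00998 and limma-voom 4.89e-05, with both tumor groups at 0 counts. The cause was not tested in any of these. Against a 2-fold change (glmTreat) the genes called fell to 4664 for OVA in tumor cells, 450 for OVA in T cells, 4970 for the difference, 8713 between fractions of B16-F10 tumors and 4295 between those of OVA tumors, against 13838, 7623, 12817, 15948 and 14394. Members no longer called against 2-fold were Tnfrsf1a (0.72) and Ltbr (0.33) in tumor cells, and Lta (0.92), Ltb (-0.99), Csf2 (1.27), Tnfrsf1b (0.31) and Ltbr (-0.21) in T cells. They were also Tnfrsf1a (-0.71) and Ltbr (-0.54) for the difference, Il3 (adjusted p = 0.0773) and Ltbr (0.41) between fractions of B16-F10 tumors, and Tnf (-0.32), Tnfrsf1a (0.72), Tnfrsf1b (0.25) and Ltbr (-0.14) between those of OVA tumors. Leaving out 1 library at a time gave adjusted p from 0.0145 to 0.162 for Il3 between fractions of B16-F10 tumors and log2 fold changes from 0.74 to 1.06 for Lta in T cells. The numbers of the replicates were not taken to pair the samples (correlation of deviations from -0.124 to 0.122 in T cells from -0.0190 to 0.0366 in tumor cells, from -0.0454 to 0.0342 between fractions of B16-F10 tumors and, in OVA tumors, 0.282, -0.0405 and 0.283 for replicates 1, 2 and 3), since in no comparison was every pair above 0.1. A fit with the replicate block called 13656, 7576, 12723, 15905 and 14310 genes and changed no member call. Of calls in T cells 51.3% were higher with TMM and 38.8% with library totals. In tumor cells the share was 52.9% with TMM and 96% with scaling to melanoma markers, where the median of all genes moved to 1.09 and Tnfrsf1a and Ltbr stood at 1.77 and 1.37. Library totals moved that median to -0.13 in tumor cells. In T cells, scaling left the sign of each list's median unchanged except for other ligands, lymphotoxin receptor signalling and mRNA turnover, which library totals put at -0.022, -0.032 and -0.048. Low depth limits Lta, Csf2 and Il3.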
